A study of Mus musculus with 48 samples.

Results

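The 4 CD3 chains and the 4 proteins that first relay their signal were followed across every group of the series. The genes were Cd3d, Cd3e, Cd3g, Cd247, Lck, Zap70, Lat and Lcp2, which are 8 of the 34932 genes with a value. They were chosen by name as the parts of the T cell antigen receptor (TCR) complex nearest the membrane, though with earlier results of these data known. Transcript values were added up per gene, and each gene was read in all 12 groups, both as a level and as a ratio to the other genes of the same library.

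The TCR binds antigen through its alpha and beta chains, which have short tails and cannot signal by themselves. The CD3 delta, epsilon, gamma and zeta chains (Cd3d, Cd3e, Cd3g, Cd247) carry the tyrosine motifs that do so. The kinase Lck, held at CD4 or CD8, phosphorylates these motifs, the kinase ZAP-70 (Zap70) docks on them, and ZAP-70 then phosphorylates the scaffold LAT (Lat) and the adaptor SLP-76 (Lcp2), on which the calcium and Ras branches of the pathway assemble.

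The study compared wild-type (WT) C57BL/6J mice with mice of the genotype CD4Cre Yap flox (Yap-cKO), in which Cre driven by the CD4 promoter deletes Yap and switches on a yellow fluorescent reporter. The mice were 6 to 10 weeks old and all carried subcutaneous B16F10 melanoma, a transplantable mouse tumor line of the same strain. CD4+ T cells, CD8+ T cells and a remainder of leukocytes that stained for CD45 but for neither CD4 nor CD8 (CD45+ cells below) were sorted from the tumor (tumor-infiltrating lymphocytes, TILs) and from the tumor-draining inguinal lymph node (TDLN). Each of the 12 groups held 4 libraries, 48 in all, and since the labels do not state that each library came from its own animal, p-values measure the spread between libraries. Cre driven by this promoter acts in developing thymocytes before the CD4 and CD8 lineages part, so both T cell types lack Yap, while CD45+ cells without CD4 and CD8 mostly do not pass that stage.

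The libraries held 12656510 to 24213892 counts on genes (median 17870231). Levels are given as CPM, counts put on 1 library size by TMM over the 48 libraries, as mean ± SD of 4 libraries, and levels of different genes are compared only as TPM, which also divides by transcript length. The deleted gene, Yap1, was at 14.8 to 27.3 CPM in the 4 WT CD4+ TIL libraries and at 1.63 to 5.58 CPM in the Yap-cKO ones, and at 12.96 to 27.1 against 2.37 to 6.37 CPM in CD8+ TILs. In TDLN T cells it was low in both genotypes, at 1.26 to 2.59 CPM in WT against 1.13 to 4.53 CPM in Yap-cKO, so these libraries did not check the genotype there. Yap1 was also higher in WT than in Yap-cKO CD45+ TILs, at 2.74 to 5.32 against 1.52 to 2.03 CPM. In TILs of all 3 cell types the melanoma genes given next were higher in WT too, and the parts of deletion and of tumor RNA in the Yap1 level cannot be told apart. CD4+ and CD8+ cells were set apart by their own markers, Cd4 and Cd8a each being called between them in all 4 settings, with log2 differences (CD4+ minus CD8+) of -9.998 to -7.75 for Cd8a.

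Libraries from WT TILs held the most counts of melanoma genes in each cell type. The summed CPM of 10 melanoma genes was 5820 to 18104 in WT CD4+ TILs against 177 to 2408 in Yap-cKO CD4+ TILs, 3983 to 14266 against 46.2 to 2610 in CD8+ TILs, 1110 to 1841 against 134 to 517 in CD45+ TILs, and at most 24.6 in TDLN T cells, where Sox10, Gpr143 and Slc45a2 had at most 3 counts in any library. The summed CPM of 8 T cell markers, of which none is among the 8 genes, was 1099 to 4023 in WT and 4176 to 6212 in Yap-cKO CD4+ TILs, and 1159 to 2910 against 3190 to 4037 in CD8+ TILs. The first WT CD4+ TIL library and the first WT CD8+ TIL library also had the highest mitochondrial shares of counts, 1.84% and 2.55%. A further difference ran along genotype: 4 Y-linked genes summed to 43.3 to 424 CPM in WT replicates 1 to 3, to 2.51 to 8.80 CPM in WT replicate 4 and to 2.53 to 19.0 CPM in the Yap-cKO libraries.

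In TDLN T cells Lck, Cd3g and Cd3e led the 8 genes and Zap70 and Lcp2 came last. Per length, WT CD4+ T cells of the TDLN had 1415 ± 424 TPM of Lck, 1392 ± 86.1 of Cd3g and 1262 ± 165 of Cd3e. Lat followed at 772 ± 206 TPM, Cd3d at 653 ± 60.7 and Cd247 at 526 ± 87.5. The first 3 overlapped one another over their 4 libraries and all stood above Lat. Zap70 at 168 ± 36.4 TPM and Lcp2 at 166 ± 66.98 overlapped each other, and both stood below Cd247. All 8 T cell groups kept the same first 3 genes and the same last 2, with the order inside each set changing between groups.

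Of the 4 CD3 genes, 3 lie side by side on chromosome 9 (GRCm38). Cd3g runs from 44969572 to 44980431 on the minus strand, Cd3d from 44981786 to 44987339 on the plus strand, and Cd3e from 44998740 to 45009627 on the minus strand. Cd3d and Cd3g thus start back to back and are read in opposite directions. Their neighbouring promoters are shown because of this layout. Over the 32 T cell libraries Cd3d TPM was 0.407 to 0.845 times Cd3g TPM. The mean was 0.469 ± 0.0221 in WT CD4+ T cells of the TDLN and 0.574 ± 0.0361 in WT CD4+ TILs, 2 groups that did not overlap. The tissues did overlap in WT CD8+ cells, at 0.570 ± 0.0980 in the TDLN and 0.575 ± 0.0638 in TILs. They overlapped in Yap-cKO too, at 0.416 to 0.559 and 0.447 to 0.845 in CD4+ and 0.427 to 0.521 and 0.407 to 0.661 in CD8+ cells. These ratios are a description with no test. Each sequence is the 250 bases before the RefSeq start (GRCm38.p6), given 5′ to 3′ along the gene, Cd3d from chr9:44981536-44981785 on the plus strand and Cd3g from chr9:44980432-44980681 on the minus strand. Capitals mark matches, on either strand, to the core letters AGGAAG for ETS factors, TGTGGT for RUNX factors, AGATAA for GATA factors and CAGCTG for E-proteins, families of transcription factors active in T cells. None of these cores is contained in another.
Cd3d: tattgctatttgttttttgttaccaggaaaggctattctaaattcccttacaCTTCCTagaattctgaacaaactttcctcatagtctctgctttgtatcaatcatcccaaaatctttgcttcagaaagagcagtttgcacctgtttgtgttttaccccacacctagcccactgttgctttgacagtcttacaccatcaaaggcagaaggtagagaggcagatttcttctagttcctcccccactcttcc
Cd3g: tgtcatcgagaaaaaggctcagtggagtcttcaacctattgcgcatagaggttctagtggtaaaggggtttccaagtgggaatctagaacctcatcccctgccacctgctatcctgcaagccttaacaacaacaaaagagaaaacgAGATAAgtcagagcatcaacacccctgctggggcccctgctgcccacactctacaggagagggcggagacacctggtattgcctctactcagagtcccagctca
Cd3d held 1 ETS match and Cd3g held 1 GATA match. Over the 11 RefSeq starts of the 8 genes, 9 windows held the ETS letters, as did 29.5% of 32851 promoters of the same length, 2 held RUNX letters (14.0% of all promoters), 2 GATA letters (10%) and 1 the E-protein letters (13%). A match describes letters in a window and does not show binding.

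The genes outside that cluster lie apart. Cd247, for CD3 zeta, runs from 165788681 to 165877277 on the plus strand of chromosome 1, and Zap70 from 36761798 to 36782818 on the plus strand of the same chromosome. Lck lies on chromosome 4 from 129548344 to 129573641 (minus strand), Lat on chromosome 7 from 126363824 to 126369570 (minus strand) and Lcp2 on chromosome 11 from 34046920 to 34092295 (plus strand).

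Across the 12 groups, 7 of the 8 genes were far higher in sorted T cells than in CD45+ cells, and Lcp2 was the exception. In WT TILs, Cd3e was at 136 to 815 CPM in the 8 T cell libraries and at 1.36 to 2.38 CPM in the 4 CD45+ libraries, 158-fold apart. The other folds in WT TILs were 106 for Cd3g, 85.5 for Cd3d, 48.5 for Lat, 16.1 for Cd247, 10.4 for Lck and 10.1 for Zap70. In none of these did the 4 CD45+ libraries overlap the 8 T cell libraries (exact two-sided permutation test on log2(CPM + 0.5), p = 0.00202 for each, the smallest that 4 against 8 allows). Same-numbered CD4+ and CD8+ libraries deviated together and are not fully separate, and with each such pair averaged the same 7 genes did not overlap (exact two-sided permutation p = 0.0286, the smallest for 4 against 4, an alternative chosen after seeing the data). All 8 genes were apart in the TDLNs of both genotypes and 7 of 8 in the TILs of both, where 30.9% of all genes tested were apart in WT TILs, 22.4% in WT TDLNs, 27.3% in Yap-cKO TILs and 22.7% in Yap-cKO TDLNs. Antibodies to CD3, CD4 and CD8 were used to sort these cells, so the CD3 genes here describe the sort.

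**Figure D1:**
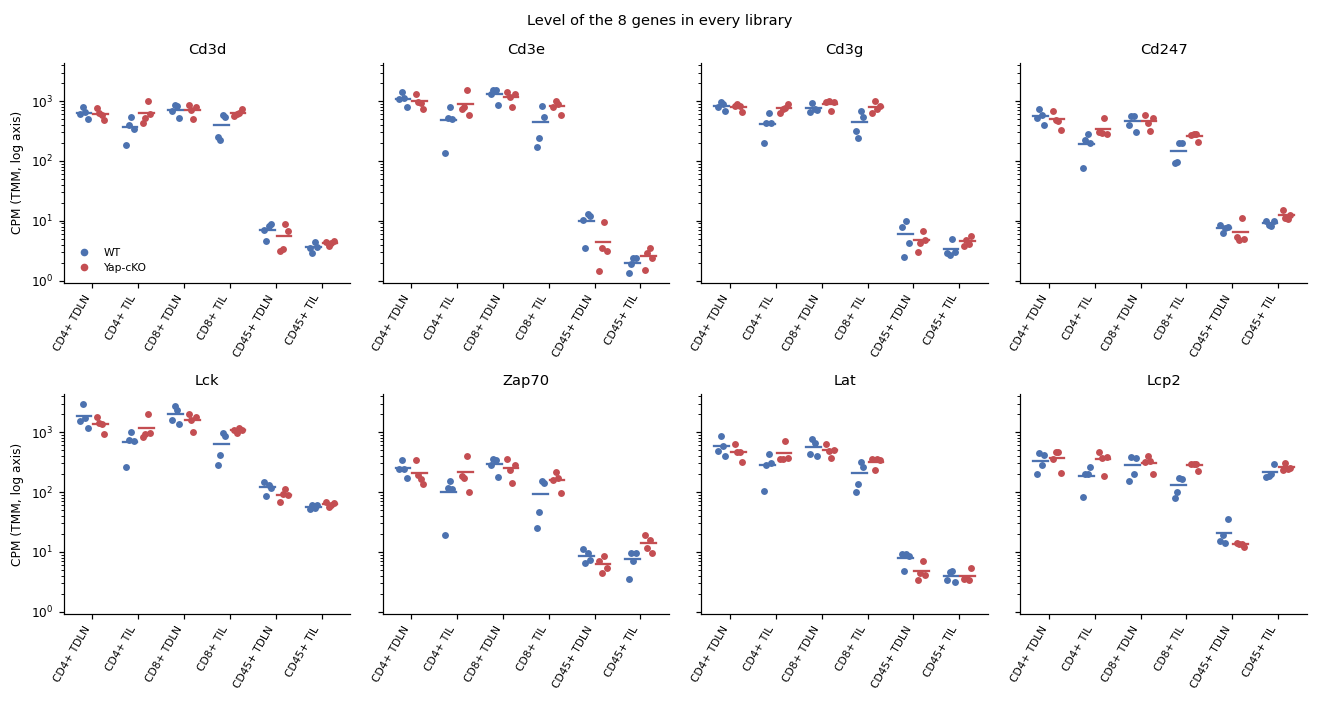
Level of each of the 8 genes in every library, as CPM on a log axis, in WT (blue) and Yap-cKO (red) cells. Each point is 1 library, and each bar is the mean of 4 libraries. Cd3e sits between 136 and 1521 CPM in T cells and between 1.36 and 13.2 CPM in CD45+ cells, while Lcp2 in CD45+ TILs (181 to 303 CPM) lies among the T cells.

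Lcp2 encodes SLP-76, which is also an adaptor in macrophages, NK cells and platelets, whereas B cells use its relative BLNK. It was at 181, 187, 199 and 297 CPM in WT CD45+ TILs and at 232, 303, 244 and 253 CPM in Yap-cKO CD45+ TILs. In CD45+ cells of the TDLN it was at 15.3, 18.99, 14.1 and 35.04 CPM in WT, and at 14.2, 13.5, 13.5 and 11.9 CPM in Yap-cKO. The tissues did not overlap in either genotype. The difference between TIL and TDLN was 3.33 ± 0.35 on the log2 scale in WT (log2 fold change ± SE, edgeR adjusted p = 6.87e-05) and 4.22 ± 0.18 in Yap-cKO (edgeR adjusted p = 3.79e-08). Against T cells of the same tissue, CD45+ TILs overlapped in Lcp2, with a difference of 0.54 in WT (exact two-sided permutation p = 0.158, and 0.257 with the pairs averaged) and -0.24 in Yap-cKO (exact p = 0.303, and 0.229), while CD45+ cells of the TDLN were 14.4-fold and 23.9-fold lower.

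The CD45+ cells of the 2 tissues were of different makeup. Summed over 8 B cell markers they had 8604 to 10890 CPM in the TDLN and 287 to 1870 CPM in TILs, and summed over 10 macrophage and monocyte markers 165 to 4080 CPM in the TDLN and 21093 to 37213 CPM in TILs. The part of these cell types in the Lcp2 level was not tested. Blnk fell by 2.26 on the log2 scale from TDLN to TIL in WT CD45+ cells and by 2.87 in Yap-cKO, the opposite direction to Lcp2. Fyb, which binds SLP-76, rose with it, by 3.33 and 4.10.

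The promoter of Lcp2 is shown because its level across groups was unlike that of the other 7 genes. The 250 bases before the start lie at chr11:34046678-34046927 on the plus strand (GRCm38.p6), with capitals as above.
Lcp2: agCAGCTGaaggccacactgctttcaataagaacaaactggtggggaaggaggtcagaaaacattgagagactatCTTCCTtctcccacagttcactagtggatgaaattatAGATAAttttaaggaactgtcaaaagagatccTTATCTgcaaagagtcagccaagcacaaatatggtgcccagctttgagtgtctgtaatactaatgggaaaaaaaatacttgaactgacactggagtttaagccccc
This window held 2 GATA matches, 1 ETS match and the sole E-protein match among the 11 windows.

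Lck was the other gene with a clear level in CD45+ cells. WT CD45+ cells of the TDLN had 148, 84.5, 132 and 119 CPM and Yap-cKO ones 68.2, 91.6, 113 and 89.3 CPM, while the other 6 genes but Lcp2 were at 1.45 to 13.2 CPM there. In CD45+ TILs it was at 52.05, 60.6, 53.8 and 59.9 CPM in WT, and at 67.8, 55.6, 61.6 and 66.1 CPM in Yap-cKO. The tissues did not overlap in either genotype. Per length, Lck was the highest of the 8 genes in CD45+ cells of the TDLN, at 82.9 ± 4.41 TPM in WT, and stood above the next gene in each genotype with no overlap. T cells still held 15.5-fold more Lck than CD45+ cells in WT TDLNs. The marker lists of the CD45+ cells stand above, and NK cell markers (9 genes) summed to 132 to 301 CPM in the TDLN and 336 to 502 CPM in TILs, and the part of any of them in the Lck level was not tested.

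Cd247 and Zap70, which NK cells also use behind their activating receptors, were low in CD45+ TILs, and their higher levels in Yap-cKO were not called. Cd247 was at 10.03, 8.595, 8.104 and 9.96 CPM in WT CD45+ TILs and at 15.4, 11.1, 10.8 and 12.3 CPM in Yap-cKO CD45+ TILs. Zap70 was at 3.53, 9.56, 7.17 and 9.597 and 18.95, 11.6, 15.6 and 9.704 CPM. In both genes the 4 Yap-cKO libraries lay above the 4 WT ones, yet neither passed the test (log2 fold changes 0.40 ± 0.19 and 0.87 ± 0.32, edgeR adjusted p = 0.291 and 0.201). For Zap70 the groups were only just apart, at 9.597 and 9.704 CPM, and the share of all genes apart here was not counted. Between tissues, Zap70 rose by 1.07 ± 0.29 in Yap-cKO CD45+ cells (edgeR adjusted p = 0.00899), from 7.04, 4.44, 8.54 and 5.42 CPM in the TDLN, a call that was lost without TDLN replicate 2 or 4 or TIL replicate 1. The same comparison in WT was -0.26 ± 0.35 (edgeR adjusted p = 0.561), and whether the genotypes differ in this was not tested.

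Lck has a distal start, used in mature T cells, and a proximal start, used most in thymocytes, and both were read here. The 250 bases before each RefSeq start are shown because reads from both were measured, the distal at chr4:129573642-129573891 and the proximal at chr4:129558373-129558622, on the minus strand (GRCm38.p6), with capitals as above.
Lck distal: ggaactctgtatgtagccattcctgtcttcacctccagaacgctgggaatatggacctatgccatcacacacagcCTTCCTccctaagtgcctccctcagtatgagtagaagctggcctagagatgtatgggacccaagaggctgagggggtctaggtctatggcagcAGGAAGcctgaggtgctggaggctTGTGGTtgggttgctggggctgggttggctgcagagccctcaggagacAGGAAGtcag
Lck proximal: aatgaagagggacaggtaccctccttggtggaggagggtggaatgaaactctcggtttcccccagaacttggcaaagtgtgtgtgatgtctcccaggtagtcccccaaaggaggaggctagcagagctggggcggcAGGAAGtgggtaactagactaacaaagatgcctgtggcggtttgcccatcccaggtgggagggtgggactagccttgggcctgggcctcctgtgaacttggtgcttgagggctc
The distal window held 3 ETS matches and 1 RUNX match, and the proximal window held 1 ETS match. Of the TPM of transcripts that begin at either start, the proximal ones made up 8.58 ± 0.66% in WT CD4+ and 3.77 ± 0.18% in WT CD8+ T cells of the TDLN. These 2 groups did not overlap over their 4 libraries (8.13 to 9.54% and 3.58 to 4.00%). In WT TILs the shares were 5.43 ± 0.49% and 4.43 ± 1.5%, and the 2 cell types overlapped. In CD45+ cells of the TDLN, whose Lck rests on far fewer counts, the share was 19.9 ± 6.9% in WT and 14.2 ± 2.2% in Yap-cKO. These shares are a description with no test.

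**Figure D2:**
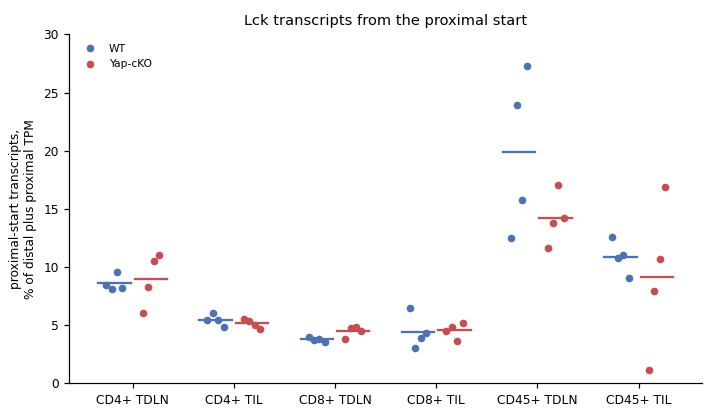
Share of Lck transcripts that begin at the proximal start, in % of distal plus proximal TPM, in WT (blue) and Yap-cKO (red) groups. Each point is 1 library and each bar the mean of 4. WT CD4+ T cells of the TDLN lie between 8.13 and 9.54% and WT CD8+ ones between 3.58 and 4.00%, and WT CD45+ cells of the TDLN range from 12.5 to 27.3%.

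Among other transcripts of the 8 genes, 1 protein-coding form carried most of the TPM in T cells, such as Cd247-201 and Cd3g-201. Of Lck TPM, 31.96 ± 7.9% in WT CD4+ TILs and 33.0 ± 4.5% in WT CD8+ TILs lay in short transcripts that retain an intron. The share was 11.7 ± 4.5% and 11.6 ± 5.5% in WT CD4+ and CD8+ T cells of the TDLN, below every WT TIL library. In Yap-cKO TILs it was 26.6 ± 7.0% and 26.8 ± 7.4%, with ranges that overlapped WT. In Yap-cKO T cells of the TDLN it was 15.7 ± 5.67% and 12.98 ± 9.01%, and the tissues overlapped in both. TPM divides by length, so short transcripts weigh more in TPM than in counts. In WT CD4+ TILs the intron-retaining Lck transcripts held 414 to 1329 counts per library, and those from the distal start 3934 to 17029. The Lck TPM and ratios given elsewhere include the intron-retaining transcripts. In WT CD8+ cells, the intron-retaining share of Zap70 was 3.48 to 6.76% in the TDLN and 15.2 to 30.7% in TILs. For Lat it was 2.75 to 4.93% and 5.82 to 7.92%. Both genes overlapped between tissues in WT CD4+ cells. Cd3e had the lower mean in TILs of WT CD8+ cells, 14.5 against 17.2%. These shares were not tested. A second coding form, Lcp2-202, made up 25.6 to 35.9% of Lcp2 TPM over the T cell group means.

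The comparison of tissues asked how T cells in the tumor differ from those in the draining node, and in WT mice all 8 genes were lower in TILs. A gene was called where its edgeR adjusted p was under 0.05 and its fold change above 2-fold, the thresholds of the study. Of the 8 genes, 5 were called lower in WT CD4+ TILs, where 14.4% of all genes tested were called lower, and 6 in WT CD8+ TILs, where 15.2% were. Their median log2 fold change was -1.09 in CD4+ and -1.49 in CD8+ T cells, against -0.03 and -0.02 over all genes. The 8 T cell markers moved with them, from 5450 to 9134 CPM in the TDLN to 1099 to 4023 CPM in TILs in WT CD4+ cells, and from 4333 to 6594 to 1159 to 2910 CPM in WT CD8+ cells. With libraries scaled instead to 12 genes of the T cell lineage, as described further on, 0 of the 8 genes was called in either cell type. In bulk samples, fewer T cells in a sort and less RNA of a gene per T cell cannot be told apart.

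Lck showed the drop in every library. It was at 1566, 2946, 1736 and 1195 CPM in WT CD4+ T cells of the TDLN and at 266, 746, 1011 and 721 CPM in WT CD4+ TILs. In WT CD8+ T cells it was at 1595, 2755, 2349 and 1346 CPM in the TDLN and 284, 418, 983 and 875 CPM in TILs. All TIL libraries lay below all TDLN libraries in both cell types. This held for 5 of the 8 genes in each cell type, and the share of all genes apart was not counted. Lck fell by 1.42 ± 0.40 on the log2 scale in CD4+ cells (edgeR adjusted p = 0.0124) and by 1.63 ± 0.44 in CD8+ cells (edgeR adjusted p = 0.0104).

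Cd247 fell most clearly. Its CPM was 517, 746, 589.9 and 401 in WT CD4+ T cells of the TDLN and 77.3, 220.5, 284 and 199.6 in WT CD4+ TILs. In WT CD8+ T cells it was 403, 572, 569.9 and 303 in the TDLN and 92.4, 95.6, 198 and 197 in TILs. Again no TIL library reached the lowest TDLN library. The fall was 1.51 ± 0.36 in CD4+ cells (edgeR adjusted p = 0.00477) and 1.64 ± 0.36 in CD8+ cells (edgeR adjusted p = 0.0032), and Cd247 and Lck were the 2 genes called in both cell types whichever library was left out.

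Cd3e, Zap70 and Lat were called lower in both cell types too. Cd3e was at 1073, 1398, 1116 and 792 CPM in WT CD4+ T cells of the TDLN and 136, 531, 782 and 507 CPM in WT CD4+ TILs, and fell by 1.15 ± 0.43 (edgeR adjusted p = 0.0424). Zap70 was at 239, 345, 239 and 169 and 19.1, 115, 151 and 112 CPM in the same groups and fell by 1.30 ± 0.48 (edgeR adjusted p = 0.0409). In both genes the first TIL library was the lowest, and no TIL library overlapped the TDLN. In CD8+ cells Cd3e fell by 1.54 ± 0.47 (edgeR adjusted p = 0.0189) and Zap70 by 1.64 ± 0.51 (edgeR adjusted p = 0.0215). Lat, the membrane scaffold, was at 481, 872, 579 and 402 CPM in the TDLN and 103, 288, 427 and 310.2 CPM in TILs of WT CD4+ cells, where the third TIL library lay above the lowest TDLN library. It fell by 1.03 ± 0.39 in CD4+ cells (edgeR adjusted p = 0.0477) and by 1.45 ± 0.40 in CD8+ cells (edgeR adjusted p = 0.0125).

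Cd3d and Cd3g were not called in either cell type. Cd3d was at 612, 810.2, 645 and 505 CPM in WT CD4+ T cells of the TDLN and 182, 392, 547 and 336 CPM in TILs, a difference of -0.81 ± 0.32 (edgeR adjusted p = 0.0526). Cd3g was at 794, 982, 888 and 680.3 and 198, 427, 625 and 435 CPM, with no overlap, and its difference of -0.98 ± 0.32 passed the adjusted p (0.0259 by edgeR) but not the fold. In CD8+ cells both missed both thresholds, Cd3d at -0.82 ± 0.36 and Cd3g at -0.73 ± 0.35 (edgeR adjusted p = 0.0884 and 0.108). Lcp2 was called in CD8+ cells (-1.07 ± 0.36, edgeR adjusted p = 0.031) and not in CD4+ cells (-0.82 ± 0.36, edgeR adjusted p = 0.081). In WT CD4+ cells the calls of Cd3e, Zap70 and Lat were lost without any 1 of TDLN replicates 1, 2 and 3 or TIL replicates 1, 2 and 4, and the median was -0.73 without TIL replicate 1. In WT CD8+ cells the call of Cd3e was lost without TIL replicate 1 or 2, that of Zap70 without TDLN replicate 2 or TIL replicate 2 and that of Lcp2 without TDLN replicate 2 or 4 or TIL replicate 1, 2 or 4.

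In Yap-cKO T cells, none of the 8 genes was called between the tissues. In Yap-cKO CD4+ cells the log2 fold changes ran from -0.50 to 0.05 with a median of -0.06, with 0 genes at an unadjusted p under 0.05 by edgeR or DESeq2, while 18.5% of all genes tested were called. In Yap-cKO CD8+ cells they ran from -0.77 to -0.08, with 2 genes at an unadjusted p under 0.05 by edgeR and 3 by DESeq2, while 15.9% of all genes were called. At that unadjusted p edgeR had 4477 of all 13565 genes tested in Yap-cKO CD4+ cells and 4537 of 13347 in Yap-cKO CD8+ cells. Cd247 was again the lowest, at 596, 434, 316 and 523 CPM in Yap-cKO CD8+ T cells of the TDLN and 269, 282, 278 and 211 CPM in TILs. These did not overlap, and the difference was -0.77 ± 0.22 (edgeR adjusted p = 0.0296), below the fold needed for a call.

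In WT CD45+ cells, 4 of the genes were called lower in TILs and Lcp2 higher, where 39.9% of all genes were called. Cd3e fell by 2.32 ± 0.43 (edgeR adjusted p = 0.00133), Lck by 1.14 ± 0.23 (edgeR adjusted p = 0.00199), Cd3d by 1.01 ± 0.30 and Lat by 1.03 ± 0.31 (edgeR adjusted p = 0.0181 for both). The CD3 levels behind this were low, Cd3e being at 10.2, 3.504, 13.2 and 11.997 CPM in the TDLN and 1.36, 1.92, 2.34 and 2.38 CPM in TILs. Summed over the 8 T cell markers these cells had 301 to 417 CPM in the TDLN and 108 to 170 CPM in TILs. The part of T cells left in the sort was not tested. In Yap-cKO CD45+ cells, Lcp2 and Zap70 were the 2 genes called higher in TILs, where 21.8% of all genes were, and none was called lower.

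Between genotypes, all 8 genes had a higher mean in Yap-cKO TILs than in WT TILs, in CD4+ and in CD8+ cells, and 1 of these 16 differences was called. In CD4+ TILs the median log2 fold change was 0.96, against 0.14 over all genes, and 0 of the 8 were called where 8.02% of all genes were. By edgeR, 4 of the 8 had an unadjusted p under 0.05, as did 3482 of all 14205 genes tested. By DESeq2 6 of the 8 did, and DESeq2 called 0. In CD8+ TILs the median was 0.84, against 0.08 over all genes, and 1 gene, Lcp2, was called higher where 3.03% of all genes were.

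In CD4+ TILs, 1 of the 8 genes, Cd3g, had libraries that did not overlap between the genotypes, and the share of all genes apart was not counted. It was at 198, 427, 625 and 435 CPM in WT, and at 630.2, 744, 775 and 886 CPM in Yap-cKO, with a log2 fold change of 0.97 ± 0.37 (edgeR adjusted p = 0.137). Cd3d was at 182, 392, 547 and 336 CPM in WT, and at 435, 515, 986 and 603 CPM in Yap-cKO (0.93 ± 0.41, edgeR adjusted p = 0.189). Cd3e was at 136, 531, 782 and 507 and 742, 803, 1517 and 583 CPM (1.02 ± 0.51, edgeR adjusted p = 0.244). The lowest library was the first WT one and the highest the third Yap-cKO one in both Cd3d and Cd3e, and the libraries between them overlapped. Cd247 was at 77.3, 220.5, 284 and 199.6 CPM in WT, and at 308, 289, 513 and 279 CPM in Yap-cKO (0.95 ± 0.41, edgeR adjusted p = 0.185).

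The relay proteins showed the same pattern in CD4+ TILs. Lck was at 266, 746, 1011 and 721 CPM in WT, and at 846, 951, 2000.2 and 968 CPM in Yap-cKO (0.92 ± 0.46, edgeR adjusted p = 0.241). Zap70 was at 19.1, 115, 151 and 112 and 185, 172, 403 and 102 CPM, with 1 Yap-cKO library below 3 WT ones (1.23 ± 0.59, edgeR adjusted p = 0.225). Lat had a log2 fold change of 0.78 ± 0.44 (edgeR adjusted p = 0.301). In all 3 the genotypes overlapped. Lcp2 was at 83.8, 197, 203 and 264 CPM in WT, and at 466, 373, 188 and 378 CPM in Yap-cKO (1.01 ± 0.40, edgeR adjusted p = 0.156), where the third Yap-cKO library was within the WT range. Without that library Lcp2 was the 1 gene of the 8 called.

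In CD8+ TILs, Lcp2 was at 78.9, 99.8, 174 and 162 CPM in WT, and at 299, 293, 298 and 222 CPM in Yap-cKO. The genotypes did not overlap, and the log2 fold change was 1.14 ± 0.27 (edgeR adjusted p = 0.0278). This call was lost without the first or second WT library or without Yap-cKO replicate 1, 2 or 4, and without the third WT library 4 genes (Cd3e, Cd3g, Cd247 and Lcp2) were called. Macrophage and monocyte markers, cells that also use SLP-76, summed to 312 to 729 CPM in WT against 788 to 2071 CPM in Yap-cKO CD8+ TILs, and their part in this call was not tested.

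The other 7 genes in CD8+ TILs had log2 fold changes from 0.68 for Lat to 0.92 for Cd3e, with edgeR adjusted p from 0.0748 to 0.284. Cd247 was at 92.4, 95.6, 198 and 197 CPM in WT, and at 269, 282, 278 and 211 CPM in Yap-cKO, with no overlap (0.86 ± 0.30, edgeR adjusted p = 0.0748). Cd247 and Lcp2 were the 2 genes of the 8 apart in CD8+ TILs, and the share of all genes apart was not counted. Cd3e was at 169, 243, 815 and 534 and 786, 1000.4, 901 and 585 CPM. Lck was at 284, 418, 983 and 875 and 1087, 975, 1182 and 1079 CPM. For Cd3e the third WT library lay among the Yap-cKO ones, and for Lck it lay just above the lowest Yap-cKO library.

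The melanoma and T cell marker sums given above differed between WT and Yap-cKO TILs in the same libraries, without overlap in either cell type. Their part in the genotype differences was not tested. A further fit took WT replicate 4 as the lone control, with its spread taken to be like that of the Yap-cKO group. This was the WT set whose Y-linked sum was as low as in Yap-cKO. All 8 log2 fold changes stayed positive in TILs, with medians of 0.76 in CD4+ and 0.41 in CD8+ cells. In the TDLN the same control turned the sign of 8 of the 8 genes in CD4+ and of 6 in CD8+ T cells.

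In the TDLN, no gene of the 8 was called between genotypes in any cell type. The log2 fold changes ran from -0.44 to 0.15 in CD4+ T cells, where 0.0462% of all genes were called, from -0.33 to 0.24 in CD8+ T cells, where 0.0158% were, and from -1.13 to -0.22 in CD45+ cells, where 0.0596% were. At an unadjusted p under 0.05 edgeR found 0, 0 and 1 of the 8 genes and DESeq2 0, 0 and 2. Over all genes tested edgeR found 228 of 12992, 120 of 12651 and 391 of 13432 at that p. Lck, for example, was at 1805, 1415, 1363 and 923 CPM in Yap-cKO CD4+ T cells of the TDLN (-0.44 ± 0.30, edgeR adjusted p = 0.97). The signs of these differences in T cells depended on the control, as given above for WT replicate 4. In CD45+ TILs 0 of 8 were called, 1 had an unadjusted p under 0.05 by edgeR and 2 by DESeq2, and 0.991% of all genes were called. By edgeR 2425 of all 13628 genes tested there were at that unadjusted p.

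Whether the genotype difference itself differed between TIL and TDLN was tested over 16 libraries per cell type. The difference of differences was positive for all 8 genes in both cell types, with CD4+ cells at 0.85 to 1.48 (median 1.11) and CD8+ cells at 0.60 to 1.11 (median 0.89), against medians of 0.14 and 0.05 over all genes. None was called (edgeR adjusted p at least 0.242 and 0.30), while 1.36% and 0.422% of all genes were. At an unadjusted p under 0.05 there were 3 and 2 of the 8 by edgeR, and 3 and 1 by DESeq2. By edgeR 2239 of all 15087 genes tested in CD4+ and 2333 of 14937 in CD8+ cells were at that p. These comparisons share libraries with those of genotype and tissue.

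No difference of the 8 genes between CD4+ and CD8+ T cells passed the test. The log2 fold changes (CD4+ minus CD8+) ran from -0.17 to 0.50 in WT TILs, where 0.119% of all genes were called, and from -0.26 to 0.28 in WT TDLNs, where 3.76% were. In Yap-cKO they ran from -0.08 to 0.45 in TILs and from -0.28 to 0.23 in TDLNs, and 2.49% of all genes were called in each. Over the 4 comparisons 0 of the 8 were called, and 0 had an unadjusted p under 0.05 by edgeR or DESeq2. By edgeR that p was reached by 541 of 14266 genes tested in WT TILs and 1613 of 12785 in WT TDLNs. In Yap-cKO it was reached by 1435 of 13902 in TILs and 1463 of 12954 in TDLNs. The SE of the differences of the 8 genes was 0.19 to 0.66. Differences above their SE were not called either, such as Lat in Yap-cKO TILs (0.45 ± 0.28, edgeR adjusted p = 0.756). Differences of the size of the SE and somewhat larger are thus not excluded. With the replicate number as a block, which pairs CD4+ and CD8+ libraries, the count of calls among the 8 was again 0.

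Levels relative to other T cell genes were read by scaling each T cell comparison on 12 genes that T cells share, among them Trac, Trbc1, Cd2, Cd5, Thy1 and Bcl11b, in place of TMM. On that scale, 0 of the 8 genes was called in any of the T cell comparisons. The genotype medians moved from 0.96 to -0.01 in CD4+ TILs and from 0.84 to -0.19 in CD8+ TILs. The tissue medians in WT went from -1.09 to 0.19 for CD4+ cells, and for CD8+ cells from -1.49 to -0.04. The median of all genes moved by -0.95, -1.03, 1.34 and 1.48 in these 4 comparisons, and the 12 scaling genes themselves had TMM medians of 0.93, 1.05, -1.40 and -1.41. Under it 17 genes of all were called higher and 3737 lower in CD4+ TILs of Yap-cKO (193 and 946 with TMM), and 6 and 6658 in CD8+ TILs (428 and 1291 with TMM). For tissue in WT the split was 8491 higher and 124 lower in CD4+ (3203 and 2024 with TMM) and 8995 and 113 in CD8+ cells (3121 and 2114 with TMM). Between CD4+ and CD8+ cells the medians on this scale were -0.47, -0.51, -0.22 and -0.56 in WT TILs, WT TDLNs, Yap-cKO TILs and Yap-cKO TDLNs, against 0.09, -0.04, 0.24 and -0.20 with TMM, so the direction in TILs turned with the scaling.

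**Figure D3:**
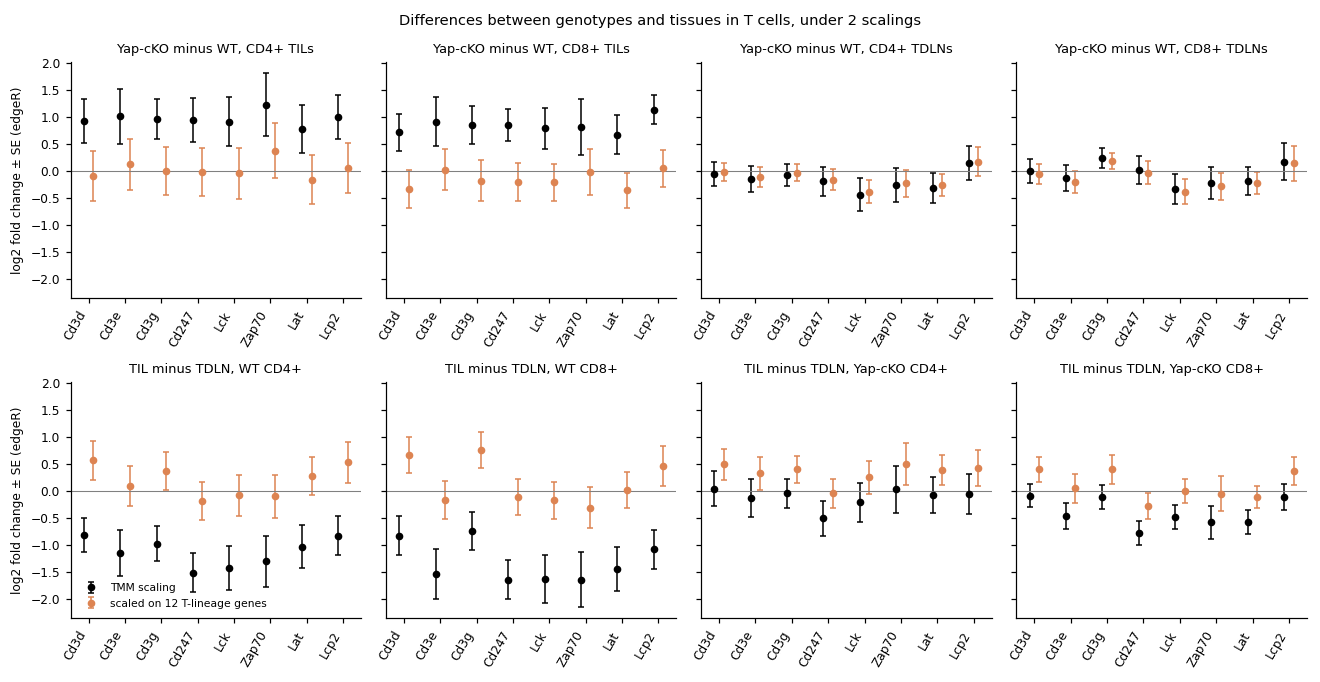
Log2 fold change ± SE of each of the 8 genes by edgeR, for genotype (upper row, Yap-cKO minus WT) and tissue (lower row, TIL minus TDLN) in T cells, with TMM scaling (black) and scaled on 12 T-lineage genes (orange), 4 libraries per group. In CD4+ TILs the black points lie between 0.78 and 1.23 and the orange points between -0.16 and 0.38, and in WT CD8+ T cells the tissue differences move from a median of -1.49 to -0.04.

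The ratios of the genes within a library needed no scaling between libraries. Each gene was set against the mean of the 8 as a difference of log2 TPM, and groups were compared by an exact two-sided permutation test of 4 against 4, whose smallest p is 0.0286. Between genotypes, 1 of 48 comparisons did not overlap, where 13.5% of all gene comparisons of this kind did not. It was Lck in CD8+ T cells of the TDLN, at 1.24, 1.42, 1.44 and 1.24 in WT and 1.06, 1.04, 1.10 and 1.14 in Yap-cKO, a difference of -0.25 (exact p = 0.0286, unadjusted for 48 comparisons). Between tissues 16 of 48 did not overlap, no more than the 36.9% of all gene comparisons, and in T cells alone 7 of 32, fewer than the 33.7% of all genes. The other 9 were in CD45+ cells. For these shares each other gene, tumor and macrophage genes included, was set against the mean of the 8. Such ratios also carry the makeup of a library, so the shares are not a like background for ratios among the 8.

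The 7 in T cells were of Cd3d, Cd3g and Cd247, and since their number is not above that of all genes, and that background is unlike, their values are a description. The share of Cd3d was higher in TILs than in the TDLN in WT CD4+ (by 0.39), WT CD8+ (by 0.53) and Yap-cKO CD8+ cells (by 0.37). In WT CD8+ cells it was 0.46, 0.15, 0.29 and 0.14 in the TDLN and 1.04, 0.67, 0.70 and 0.74 in TILs, and Cd3g was higher there too, by 0.50. The log2 ratio of Cd247 to that mean was lower in TILs of WT CD4+ (-0.43), Yap-cKO CD4+ (-0.39) and Yap-cKO CD8+ cells (-0.40). In Yap-cKO CD4+ cells it was -0.09, -0.30, -0.30 and -0.30 in the TDLN and -0.60, -0.73, -0.52 and -0.71 in TILs. In CD45+ cells the ratio of Lcp2 was higher in TILs by 3.93 in WT and 3.99 in Yap-cKO, which lowers the other ratios of those libraries by construction.

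**Figure D4:**
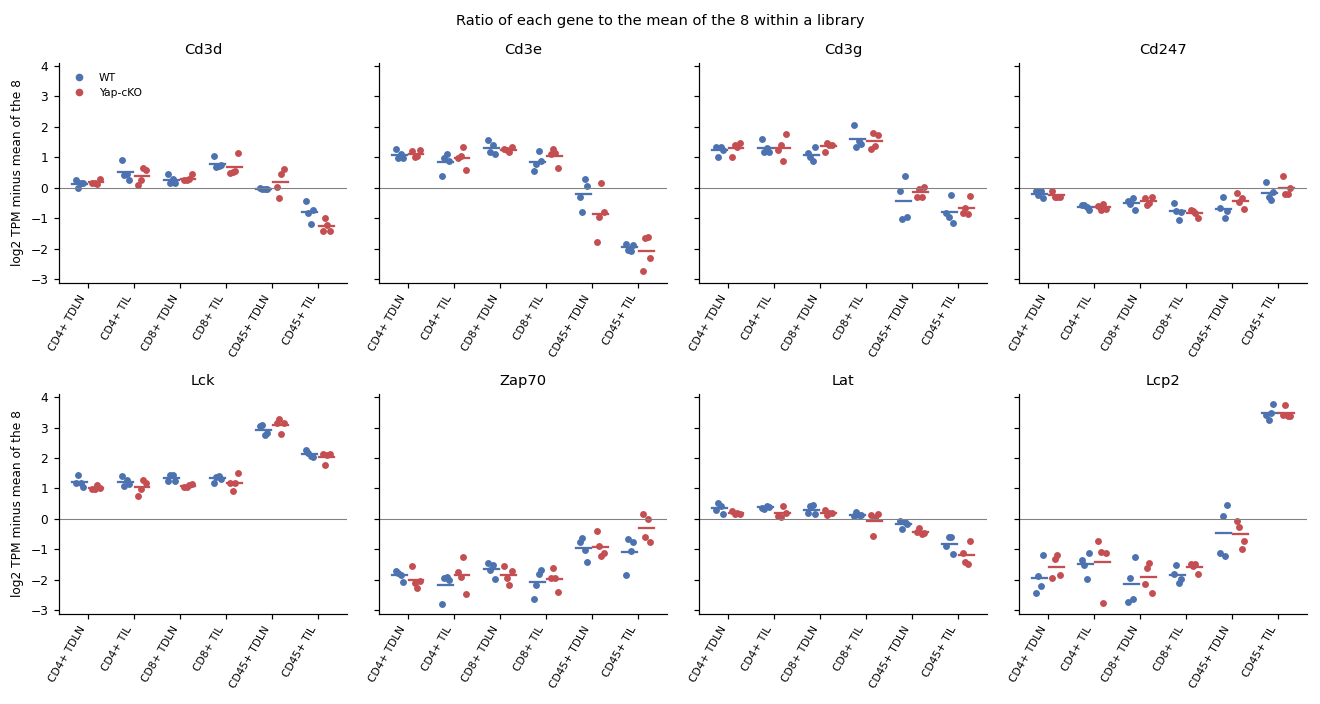
Ratio of each gene to the mean of the 8 genes in the same library, as a difference of log2 TPM, in WT (blue) and Yap-cKO (red). Each point is 1 library and each bar the mean of 4. In T cells Cd3d lies at 0.13 on average in WT CD4+ T cells of the TDLN and at 0.51 in WT CD4+ TILs, Cd247 at -0.19 and -0.62, and Lcp2 in WT CD45+ TILs reaches 3.47.

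Pair by pair, Lck and Lat held the steadiest ratio over the 32 T cell libraries. Lck TPM was 1.58 to 2.74 times Lat TPM, and the SD of the log2 ratio within a group averaged 0.10. Cd3d with Lck (mean SD 0.16), Cd247 with Lat (0.16) and Cd3e with Zap70 (0.18, with Cd3e at 5.83 to 10.2 times Zap70) followed among the 28 pairs. The widest were Zap70 with Lcp2 (0.72, with Zap70 at 0.369 to 2.85 times Lcp2) and Cd3e with Lcp2 (0.62). All 7 pairs with Lcp2 were among the 8 widest of the 28, the other being Cd3g with Zap70 (0.52). In CD45+ cells Lck was at 6.396 to 12.3 times Lat and Cd3e at 0.133 to 2.76 times Zap70, outside the T cell ranges, whereas Cd247 with Lat and Zap70 with Lcp2 overlapped theirs in WT CD45+ cells of the TDLN.

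The other genes of the pathway are given by their role. Of the 10 TCR chains and coreceptors, 7 were called lower in WT CD4+ TILs than in the TDLN, from Cd8a (-2.81) and Trdc (-1.94) to Cd4 (-1.25) and Trac (-1.10). In WT CD8+ TILs 6 were lower, led by Cd4 (-1.59) and Trbc1 (-1.42), and 2 higher, Tcrg-C4 (1.68) and Tcrg-C2 (2.27). Cells sorted for 1 coreceptor held little RNA of the other. Cd8a was at 2.73 to 7.43 CPM in WT CD4+ cells of the TDLN and at 0.344 to 1.31 CPM in WT CD4+ TILs. In WT CD8+ cells Cd4 was at 1.44 to 3.14 CPM in the TDLN and at 0.289 to 1.48 CPM in TILs. Of the 10 kinases and phosphatases near the receptor, 6 were lower in WT CD4+ TILs, among them Txk (-1.79), Fyn (-1.43), the Src kinase next to Lck, and Ptpn22 (-1.31), and 1 was higher, Ptprj (2.26). In WT CD8+ TILs 5 were lower, among them Ptpn6 (-1.50), Txk (-1.41), Csk (-1.27) and Ptpn22 (-1.24), and Ptprj was higher (2.81), and Fyn was not called (-0.85, edgeR adjusted p = 0.0527).

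Of 18 adaptors and effectors around LAT and SLP-76, 9 were lower in WT CD4+ TILs, from Rasgrp1 (-2.46), which activates Ras, and Prkcq (-2.17) to Vav3 (-1.28), and Gab2 was higher (6.24). In WT CD8+ TILs 9 were lower, from Rasgrp1 (-2.23) and Prkcq (-1.94) to Grap (-1.02), and Gab2 was higher (5.15). All 10 melanoma markers were called higher in the same comparisons, with medians of 10.95 in CD4+ and 10.02 in CD8+ cells. The part of tumor RNA in the Gab2 level was not tested. Of 17 negative regulators and transmembrane adaptors, 9 were lower in WT CD4+ TILs, led by Pag1 (-2.38) and Dgka (-2.04), with Cd5 (-1.23) and Cbl (-1.05) the least, and 11 in WT CD8+ TILs, led by Pag1 (-2.94) and Cd6 (-2.45), with Cblb (-1.12) and Sla (-1.01) the least. Of 12 genes that do this work in other leukocytes, 6 were higher and 1 lower in WT CD4+ TILs, with Fcer1g (5.04) and Tyrobp (3.92) the highest and Plcg2 (1.59) and Cd79a (-2.58) the lowest among those called. In WT CD8+ TILs 5 were higher and 2 lower, with Fcer1g (4.11) and Tyrobp (3.76) the highest and Cd79b (-1.92) and Cd79a (-2.28) the lowest. All 10 macrophage and monocyte markers were called higher too, summing to 11.4 to 18.8 CPM in the TDLN and 286 to 776 CPM in TILs of WT CD4+ cells and to 16.1 to 42.6 and 312 to 729 CPM in WT CD8+ cells. Of 8 B cell markers, 6 and 7 were called lower, their sum being at 33.9 to 97.1 and 7.91 to 16.2 CPM in CD4+ and at 76.9 to 130.3 and 19.7 to 29.0 CPM in CD8+ cells. The part of these cells in the 12 genes was not tested. In Yap-cKO T cells fewer of the first 4 lists were called lower, 8 genes in CD4+ and 3 in CD8+ cells, which was not tested as a difference. Over all genes tested, 823 of 13565 were called lower in Yap-cKO CD4+ TILs and 669 of 13347 in Yap-cKO CD8+ TILs. In WT these numbers were 2024 of 14009 and 2114 of 13894, so fewer of all genes were called lower in Yap-cKO too. Pag1 (-1.52 and -1.46) and Dgka (-1.82 and -1.37) were lower in both Yap-cKO cell types.

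Between genotypes in CD4+ TILs, the first 4 lists gave Ubash3b (1.40), a phosphatase that limits TCR signals, as higher in Yap-cKO and Gab2 (-2.96) as lower. Gab2 was also the 1 gene of these lists whose genotype difference differed between TIL and TDLN (-3.76, edgeR adjusted p = 0.023). In CD4+ cells the 10 melanoma markers had medians of -3.27 between genotypes in TILs and -3.28 in this difference of differences. The part of tumor RNA in these Gab2 values was not tested. In CD8+ TILs 2 of 10 TCR chains and coreceptors were higher (Cd4 2.38, Tcrg-C4 1.41). Cd4 was low in these cells sorted for CD8, at 0.289 to 1.48 CPM in WT and 2.57 to 5.72 CPM in Yap-cKO. Also higher were 3 of 10 kinases and phosphatases (Ptprc 1.80, Ptpn22 1.59, Ptpn7 1.16) and 6 of 18 adaptors and effectors (Rasgrp1 1.76, Vav3 1.70, Themis 1.60, Prkcq 1.34, Tespa1 1.20, Fyb 1.19). So were 2 of 17 negative regulators and transmembrane adaptors (Trat1 1.84, Cblb 1.46). The medians of the 4 lists were 0.90, 0.95, 0.95 and 1.09, near that of the 8 genes. With the replicate block, with WT replicate 4 as the lone control or without Yap-cKO replicate 2, 0 genes of all were called higher in CD8+ TILs, from 428. The macrophage and monocyte markers given above were higher in the same comparison, 6 of 10 by call. Trac and Fyn were not called in either cell type. Lat2, the counterpart of LAT in B and myeloid cells, was higher in both (1.74 and 1.98). No gene of these lists was called between genotypes in the TDLN or in CD45+ TILs.

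Syk, the relative of ZAP-70 in B and myeloid cells, was high where Zap70 was low. It was at 935 ± 271 CPM in WT CD45+ cells of the TDLN and 361 ± 130 CPM in WT CD45+ TILs, and at 3.83 to 12.1 CPM over the T cell group means. In CD45+ cells it fell from TDLN to TIL by 1.41 in WT and by 1.19 in Yap-cKO, as did Btk, Plcg2, Blnk, Cd79a and Cd79b, while Fcer1g, Tyrobp and Fgr rose in both genotypes. Trac, for the TCR alpha chain, was at 432 to 1322 CPM over the T cell group means and at 4.12 to 7.95 CPM over the CD45+ ones, close to the CD3 genes.

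Among protein-coding genes outside the 8, the pattern over the 12 group means of log2(CPM + 0.5) was most like the mean of the 8 in Ubash3a (Pearson r = 0.997), Cd27 (0.995), Skap1 (0.994), Cd6 (0.993) and Camk4 (0.992), out of 15347 genes compared. The nearest to single genes were Lrp2 and Camk4 for Cd3d, Bcl11b and Lrp2 for Cd3e, Camk4 and Tox for Cd3g, Ubash3a and Skap1 for Cd247, Bcl11b and Meis3 for Lck, Skap1 and Ubash3a for Zap70, and Cd6 and Bcl11b for Lat. For Lcp2 they were Fyb (0.994) and Slc9a9 (0.991). Among the 8 genes r was 0.975 to 0.999 between all pairs without Lcp2 and 0.577 to 0.718 between Lcp2 and the others. These 12 points share a split into T cell and CD45+ groups, and the values are a description.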

How the data were processed

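RNA of cells sorted into TRIzol LS was amplified with the SMART-Seq v4 Ultra Low Input kit, which does not mark strand, so overlapping antisense genes cannot be told apart. The submitters' processing notes name FastQC, Trimmomatic and Salmon 0.9.1. The files deposited by the authors hold, per transcript, expected counts (estimated reads), TPM and an effective length. Of 112092 transcripts, 111787 matched GENCODE M21 (GRCm38) and were summed to 34932 genes, and the unmatched ones held 0.0488 to 0.18% of counts. Per file no column belonged to another sample, and the 72 pairs of libraries within groups all differed by more than sampling noise.

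Gene counts were rounded and tested with edgeR 4.0.16 in R 4.3.3 (quasi-likelihood, TMM, a gene needing 10 or more counts in 4 or more libraries, only the groups compared, Benjamini-Hochberg adjustment over all genes tested). For a call the adjusted p had to be under 0.05 and the change over 2-fold either way, an absolute log2 value above 1. Where CPM ranges are said not to overlap between genotypes or tissues, the share of all genes apart was not counted. Counting error weighs most on the CD3 genes in CD45+ cells, where Cd3e had as few as 22 counts in a library and counting error can be as large as the spread between libraries, and 3 counts correspond to 0.124 to 0.237 CPM. CD45+ against T cells and the ratios used exact permutation tests on values with a pseudocount of 0.5 (CPM) or none (TPM). Alternatives were DESeq2 1.42.0, no count filter, adjusted p alone, T-lineage scaling, a replicate block, WT replicate 4 as the lone control, leaving out each library and, chosen after seeing the data, averaging same-numbered CD4+ and CD8+ libraries against CD45+ cells. The steps were tested on simulated data.

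The replicate numbers paired CD4+ with CD8+ libraries in WT TILs, WT TDLNs and Yap-cKO TILs, where same-numbered libraries deviated together (correlations of deviations from 0.11 to 0.79). All 8 genes were named in every comparison. Of the other pathway lists the called genes were named, or, where more than 6 of a list were called, the 2 highest and 2 lowest, and always Trac, Fyn and Syk where levels were compared, and some genes that this rule names are not reported here. Likeness was Pearson r over 12 group means. The genes and the lists were chosen with earlier results of these data known. Promoters came from RefSeq (GRCm38.p6), where all 8 genes matched.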

Additional observations from a re-analysis of the deposited data

Results flagged for a closer look

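In 192 groups of 4 libraries (8 genes in 12 groups, as CPM and as the log2 ratio to the mean of the 8), the highest or lowest library stood apart from the other 3 by Dixon's test in 17. Chance flags about 1 in 20 groups, and no explanation was tested.

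The third Yap-cKO CD4+ TIL library was high in 3 genes. It had 2000.2 CPM of Lck against 846 to 968 in the other 3, 703 CPM of Lat against 351 to 370.0 and 513 CPM of Cd247 against 279 to 308. The fourth Yap-cKO CD8+ TIL library had 222 CPM of Lcp2 against 293 to 299, and a Cd3d ratio of 1.13 against 0.49 to 0.55, and the second had 235 CPM of Lat against 338 to 359. In T cells of the TDLN, the third Yap-cKO CD8+ library had 676 CPM of Cd3g against 956 to 994. The first Yap-cKO CD4+ library of the TDLN had a Cd247 ratio of -0.0945 against -0.302 to -0.297, and the fourth a Cd3d ratio of 0.30 against 0.126 to 0.154. The first WT CD4+ TIL library had a Zap70 ratio of -2.79 against -2.01 to -1.93.

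In CD45+ TILs, WT replicate 4 had 297 CPM of Lcp2 against 181 to 199, and WT replicate 3 had 5.02 CPM of Cd3g against 2.64 to 3.0. Yap-cKO replicate 4 had 5.36 CPM of Lat against 3.38 to 3.59, and Yap-cKO replicate 2 had a Lck ratio of 1.78 against 2.08 to 2.14 and a Lcp2 ratio of 3.74 against 3.37 to 3.43. In CD45+ cells of the TDLN, Yap-cKO replicate 3 had 11 CPM of Cd247 against 4.85 to 5.3, and WT replicate 2 had 4.84 CPM of Lat against 8.63 to 9.08.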

How the results depend on the processing

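Over the alternatives, 2160 values of single genes were recomputed. Of these, 2079 kept their direction and their side of the threshold, 60 lost a call, 17 gained one and 4 called values turned direction, and 148 values that were not called took another sign. The 4 came from T-lineage scaling of the tissue comparison: Cd3e 0.10 and Lat 0.28 in WT CD4+ cells, and Lat 0.026 and Lcp2 0.46 in WT CD8+ cells. That scaling left 0 calls among the 8 genes in WT CD4+ (from 5) and WT CD8+ cells by tissue (from 6) and 0 in CD8+ TILs by genotype (from 1). It rests on 12 genes whose own levels differ between these groups, so it compares the 8 genes with T cell genes. With the lone WT replicate 4 as control, CD8+ TILs had 0 calls. Adjusted p alone gave 1 call in Yap-cKO CD8+ and 4 in Yap-cKO CD45+ cells by tissue (from 0 and 2). No genotype ratio was apart with expected counts in place of TPM (0) or set against Cd3e (0), from 1.

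Leaving out 1 library at a time gave 0 to 1 calls in CD4+ TILs and 0 to 4 in CD8+ TILs by genotype, and by tissue 2 to 7 in WT CD4+, 3 to 6 in WT CD8+, 3 to 6 in WT CD45+ and 1 to 3 in Yap-cKO CD45+ cells. In WT CD4+ cells the count was 2 without TDLN replicate 2 or 3 or TIL replicate 1, 2 or 4, and 3 without TDLN replicate 1. In WT CD8+ cells it was 3 without TIL replicate 2, and in WT CD45+ cells 3 without TDLN replicate 3 or 4 or TIL replicate 1 or 4. In Yap-cKO CD45+ cells it was 1 without TDLN replicate 2 or 4 or TIL replicate 1. Genotype ratios apart numbered 1 to 3 and tissue ratios 16 to 19. Over all genes, CD8+ TILs by genotype had 428 genes called higher and 1291 lower, and 1 call with the replicate block, with the lone control or without Yap-cKO replicate 2. The cause was not tested.

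Replicate numbers paired no genotype or tissue comparison. With the replicate block there, CD8+ TILs by genotype had 0 calls among the 8 genes and WT CD45+ cells by tissue 3 (from 5). Paired by number, 10 genotype ratios and 26 tissue ratios (from 1 and 16 apart) had all 4 pairs pointing 1 way, a looser rule than ranges apart. Depth limited Cd3e in CD45+ cells most, at 1.36 CPM in its lowest library.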
